A study of Mus musculus with 132 samples.

Results

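The retinoic acid pathway was followed through 9 genes of the count table: Aldh1a2, Dhrs3, Stra6, Crabp1, Crabp2, Rara, Rarb, Rarg and Cyp26a1. They are 9 of the 25146 genes counted, and each was found once by its gene name. Poly(A)-minus RNA-seq, which holds unspliced transcripts, was available for 23 libraries of mouse cells of the embryonic stem cell line E14. They were 2 wild-type libraries of undifferentiated mESCs at day 0 (Undiff), 9 libraries of mesoderm sorted for Flk1 at day 4 and 12 libraries of hematopoietic progenitor cells (HPCs) sorted for CD41 at day 7. By the paper the day 7 sort also took only cells negative for the blood markers CD45 and Ter119. The Flk1 libraries came from 3 wild-type, 3 P1-CTCF-KO and 3 P2-CTCF-KO lines, and the CD41 libraries, 4 wild-type, 3 P1-CTCF-KO and 5 P2-CTCF-KO, came from the same lines, of which wild-type B9.3 and P2-CTCF-KO D10.1 and D2.1 were sequenced as 2 libraries each. The KO cells lack the CTCF site next to the distal (P1) or the proximal (P2) promoter of Runx1, the transcription factor gene needed for blood emergence, after CRISPR-Cas9 deletion. By the study's supplement the KO lines are sub-clones of fewer targeting events, so lines of a genotype may share a deletion allele, and n counts sub-clones or libraries of a sub-clone. All cells past day 0 had been differentiated without serum, first with BMP4, then with bFGF and Activin A added, and after the Flk1 sort with SCF and VEGF. By the labels the 2 Undiff libraries are technical replicates, so tests against them count a single culture repeatedly. The study's methods name depletion of ribosomal RNA for Undiff alone among these stages, whereas the labels list it for all RNA-seq, so a difference between Undiff and the sorted stages cannot be told apart from a possible difference in library preparation.

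Retinoic acid is made from vitamin A (retinol), which is oxidized to retinal and then, in the early embryo mainly by Aldh1a2, to retinoic acid. It binds nuclear receptors, Rara, Rarb and Rarg, which sit on DNA with a retinoid X receptor partner and switch target genes between repression and activation. Members of the Cyp26 family oxidize retinoic acid to inactive products, and Dhrs3 reduces retinal back to retinol, so both lower the amount of retinoic acid. In the embryo retinoic acid patterns mesoderm, and retinoic acid made by Aldh1a2 is known to be needed for definitive hematopoietic stem cells.

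The receptors recognize pairs of 6-base half-sites in direct repeat, of which the form with 5 bases between the half-sites is the classical one. A search for half-sites written as AGGTCA, or alternatively as AGTTCA, or with a leading G as GGGTCA, or with both of these changes as GGTTCA, in direct repeat with 1, 2 or 5 bases between them, on both strands, was made in the 300 bases around each start in RefSeq (250 before, 50 after, table built on GRCm38.p6, every window placed by an exact match in mm9). Windows were found for 8 of the 9 genes, and Crabp2 was not searched. Of 17 windows, 2 held a match, both with 5 bases between the half-sites and both 1 per window, in Rarb and in Cyp26a1. Among all 32851 RefSeq windows 193 (0.588%) held a match of any spacing and 32 (0.0974%) one with 5 bases. A match is a description of letters and not a bound site. The stretches that hold the matches are shown 5′ to 3′ on the strand of the gene and in mm9 coordinates, with the half-sites in capitals, beside the start of Rara, which held none.

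Rarb, 250 bases before the start, chr14:17407991-17408240, minus strand: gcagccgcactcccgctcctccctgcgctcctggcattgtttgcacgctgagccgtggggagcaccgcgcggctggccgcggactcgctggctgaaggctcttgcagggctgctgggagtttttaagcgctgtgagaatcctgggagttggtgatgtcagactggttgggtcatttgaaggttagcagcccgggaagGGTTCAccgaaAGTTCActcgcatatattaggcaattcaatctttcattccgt
Cyp26a1, 250 bases before the start, chr19:37772048-37772297, plus strand: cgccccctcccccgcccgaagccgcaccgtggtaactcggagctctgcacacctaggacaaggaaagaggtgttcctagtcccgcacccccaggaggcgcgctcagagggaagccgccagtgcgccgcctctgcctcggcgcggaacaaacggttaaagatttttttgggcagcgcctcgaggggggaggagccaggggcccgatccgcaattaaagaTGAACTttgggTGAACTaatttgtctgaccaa
Rara, 250 bases before the start, chr11:98798760-98799009, plus strand: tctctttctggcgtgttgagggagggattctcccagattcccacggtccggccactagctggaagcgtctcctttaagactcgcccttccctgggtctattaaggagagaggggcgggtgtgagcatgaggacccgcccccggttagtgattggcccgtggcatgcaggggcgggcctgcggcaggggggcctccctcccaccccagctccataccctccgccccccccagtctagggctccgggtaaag
Dhrs3, intronic ATAC-seq peak of CD41+ HPCs, chr4:144488215-144488506, plus strand: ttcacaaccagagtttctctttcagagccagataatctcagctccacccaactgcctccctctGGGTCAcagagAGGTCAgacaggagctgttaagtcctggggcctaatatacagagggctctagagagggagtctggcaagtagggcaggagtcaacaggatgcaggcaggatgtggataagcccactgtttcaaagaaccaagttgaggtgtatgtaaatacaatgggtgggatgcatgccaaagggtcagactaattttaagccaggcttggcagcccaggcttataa

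In Rarb the repeat lay from base -53 to base -37 relative to the start (chr14:17408027-17408043), on the strand of the gene, overlapping a CD41 ATAC-seq peak and 3 bp from a Flk1 peak. In Cyp26a1 the repeat lay from -32 to -16 on the opposite strand (chr19:37772266-37772282), 18318 bp from the nearest Flk1 peak. The Dhrs3 repeat (chr4:144488278-144488294) lay inside an intronic peak present in both stages. In 300 bases at the peak centres, 367 of 76764 Flk1 peaks (0.478%) and 112 of 29035 CD41 peaks (0.386%) held a match, against 1 of 47 and 2 of 19 peaks in or within 5 kb of the 9 genes, the 2 being those at Dhrs3 and Rarb.

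The libraries held 20532578 and 24283287 counts in Undiff, and ribosomal RNA or multi-locus entries took 68.1% to 76.3% of them (87.8% to 91% in the other groups), leaving 4858658 and 7748566 counts for the other genes. The Flk1 libraries held 18233679 to 24406998 counts and the CD41 libraries 7805102 to 13513677, with 1955010 to 2134615 left for the other genes in wild-type Flk1 and 900145 to 1302151 in wild-type CD41. Values are given as normalised read counts (CPM, counts scaled to 1e6) of the TMM-scaled library, ribosomal entries included, from a single edgeR fit of the 23 libraries, and calls needed both an adjusted p below 0.05 and an absolute log2 fold change above 1. Of the 25146 genes 12543 passed the filter on low counts, among them 5 of the 9: Dhrs3, Rara, Rarb, Rarg and Cyp26a1. Undiff carried the pluripotency markers (summed level of 8 genes from 48.1 to 51.7 CPM), Flk1 libraries carried Kdr, which codes for Flk1, at 16.9 to 37.8 CPM in wild type, and CD41 libraries carried Itga2b, which codes for CD41, at 18.5 to 40.9 CPM in wild type. Ptprc, the pan-blood marker CD45, was at or near 0 in all groups, with at most 1.01 CPM, and the CD41 libraries came from cells sorted as CD45-negative.

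Across the stages the 5 genes took different courses. Dhrs3 rose at the step from Flk1+ mesoderm to CD41+ HPCs, Rara fell at this step, and Rarg was highest in Undiff and fell at both wild-type steps. Rarb and Cyp26a1 were higher in wild-type mesoderm than in wild-type Undiff or CD41, with limits from the scaling for Rarb against Undiff. Aldh1a2, Stra6, Crabp1 and Crabp2 were near the limit of detection throughout and were not tested. No comparison between genotypes called any of the 5 genes tested.

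**Figure D1:**
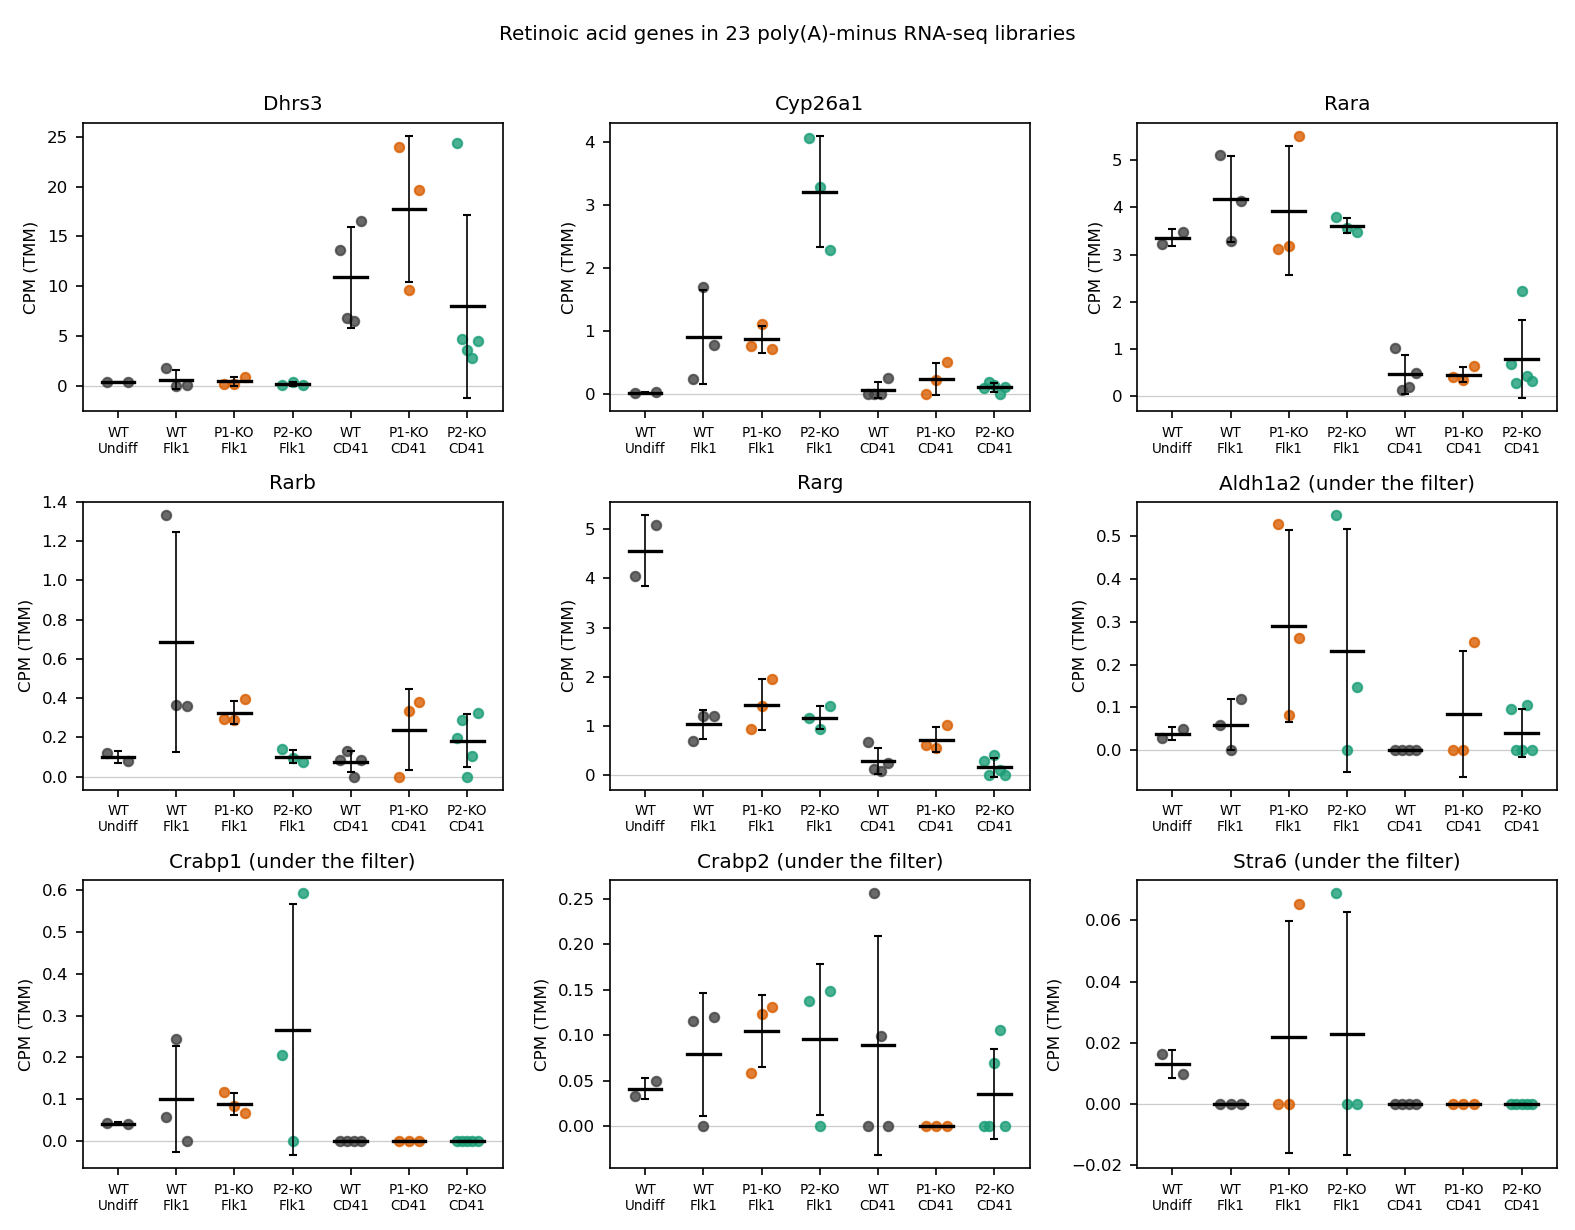
Level of each of the 9 genes in the 23 libraries, in CPM on a linear axis that differs between panels, with a point for each library and a line and bar for the mean and SD of each group (2 to 5 libraries). Dhrs3 is high in the 12 CD41 libraries alone, Rara in the 11 others, Rarg in Undiff and Cyp26a1 in the 3 P2-CTCF-KO mesoderm libraries, whereas the 4 genes under the filter hold 0 to 9 counts in a library.

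Aldh1a2 and Dhrs3 act on retinal. Aldh1a2 (ENSMUSG00000013584.5, chr9:71063595-71144050, plus strand) was hardly transcribed at any stage: 42 counts in all 23 libraries, at most 9 in a library, and no read in the 4 wild-type CD41 libraries. It held 5 and 5 counts in Undiff, 1, 0 and 2 in wild-type Flk1, 9, 2 and 4 in P1-CTCF-KO Flk1 and 8, 0 and 2 in P2-CTCF-KO Flk1. The Flk1 groups thus overlapped, and with so few reads a difference was not detectable at this depth. Without the filter on low counts its log2 fold change between P1-CTCF-KO and wild-type Flk1 was 1.94 (SE 1.11, adjusted p = 1).

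Dhrs3 (ENSMUSG00000066026.7, chr4:144482729-144518112, plus strand), the retinal reductase, was the most abundant of the 9 in HPCs. Wild-type CD41 libraries held 13.7 and 6.79 CPM (B9.3), 6.51 CPM (C6.1) and 16.6 CPM (C8.1). P1-CTCF-KO CD41 libraries held 23.9, 9.62 and 19.6 CPM, and P2-CTCF-KO CD41 libraries 24.3 and 4.71 (D10.1), 3.63 and 2.75 (D2.1) and 4.45 CPM (E9.1). Each of these 12 values was above those of the other 11 libraries. In Undiff it was at 0.366 and 0.392 CPM, in wild-type Flk1 at 1.74 (B9.3), 0 and 0.120 CPM, in P1-CTCF-KO Flk1 at 0.235, 0.165 and 0.918 CPM (E9.1) and in P2-CTCF-KO Flk1 at 0.0689, 0.375 and 0.0740 CPM.

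The step from Flk1 to CD41 raised Dhrs3 in every genotype, by 3.95 on the log2 scale in wild type (SE 0.88, adjusted p = 0.00208), 5.41 in P1-CTCF-KO (SE 0.96, adjusted p = 0.000256) and 5.61 in P2-CTCF-KO (SE 1.09, adjusted p = 0.000501). In Flk1 Dhrs3 had 30, 0 and 2 counts in wild type, 4, 4 and 14 in P1-CTCF-KO and 1, 4 and 1 in P2-CTCF-KO. With so few reads in mesoderm, Dhrs3 gave steps whose sizes are poorly measured. Its wild-type value rested in part on the line B9.3: without all 3 B9.3 libraries, an alternative chosen after the data had been seen, it was 7.07 (adjusted p = 0.00217). That is a fitted value and no measure of size, as the Flk1 libraries left held 0 and 2 counts. Between Undiff and wild-type Flk1 the difference of 0.89 was within its error (SE 0.99, adjusted p = 0.55), and against Undiff wild-type CD41 was higher by 4.83 (SE 1.0, adjusted p = 0.000587). The order of the groups by mean was P1-CTCF-KO CD41 (17.7 ± 7.34 CPM, SD, n = 3), wild-type CD41 (10.9 ± 5.03, n = 4), P2-CTCF-KO CD41 (7.97 ± 9.18, n = 5), wild-type Flk1 (0.620 ± 0.972, n = 3), P1-CTCF-KO Flk1 (0.439 ± 0.416, n = 3), Undiff (0.379 ± 0.0188, n = 2) and P2-CTCF-KO Flk1 (0.173 ± 0.175, n = 3). Between neighbours, the CD41 groups and the wild-type and P1-CTCF-KO Flk1 groups were tested against each other and none passed the test. The libraries of P2-CTCF-KO CD41 and wild-type Flk1 did not overlap, and were not tested against each other.

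The library with the highest Dhrs3 in mesoderm, wild-type B9.3, also had the highest sum of the 6 endothelial markers Cdh5, Pecam1, Tek, Flt1, Sox7 and Emcn, 83.6 CPM against 5.95 and 15.1 CPM in the other wild-type libraries. The second, P1-CTCF-KO E9.1, had the second highest, 52.8 CPM against 7.91 and 25.7 CPM. The 3 P2-CTCF-KO Flk1 libraries held 1.5 to 3.03 CPM of these markers, with Emcn at 0. Among them was D2.1, next in Dhrs3 (0.375 CPM) but with the lowest endothelial sum of all Flk1 libraries, 1.5 CPM. In CD41 libraries the highest Dhrs3 of each group went with the highest sum of the 8 hematopoietic markers, 195 CPM in wild-type C8.1, 254 CPM in P1-CTCF-KO E7.1 and 261 CPM in the first P2-CTCF-KO D10.1 library, against 120.0 to 159, 125 to 230 and 75.7 to 118 CPM in the others. The part of these cell populations in the Dhrs3 levels was not tested, and in bulk samples fewer cells of a type and less RNA per cell cannot be told apart.

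Uptake and binding of retinoids left few reads. Stra6 (ENSMUSG00000032327.8, chr9:57976894-58001804), the membrane receptor that takes up retinol, had 6 counts in all, with none in the 12 CD41 libraries. Crabp1 (ENSMUSG00000032291.8, chr9:54612554-54620917), which binds retinoic acid in the cytoplasm, had 31 counts and also none in CD41. Its highest value was 8 counts, reached in an Undiff and in a P2-CTCF-KO Flk1 library. Crabp2 (ENSMUSG00000004885.5, chr3:87752614-87757294), which passes retinoic acid to the receptors, had 30 counts with at most 6 in a library. These genes were not past the filter. In a fit without the filter Crabp1 was called lower in P2-CTCF-KO CD41 than Flk1 (adjusted p = 0.0143), a call that DESeq2 did not make (adjusted p = 0.0916), and the P2-CTCF-KO Flk1 libraries behind it held 3, 0 and 8 counts.

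The receptors differed in stage. Rara (ENSMUSG00000037992.9, chr11:98799009-98836256, plus strand) was at 3.23 and 3.48 CPM in Undiff, at 5.11, 3.28 and 4.14 CPM in wild-type Flk1, at 3.11, 3.17 and 5.51 CPM in P1-CTCF-KO Flk1 and at 3.79, 3.56 and 3.48 CPM in P2-CTCF-KO Flk1. In CD41 it was at 1.03, 0.128, 0.197 and 0.50 CPM in wild type, at 0.406, 0.336 and 0.634 CPM in P1-CTCF-KO and at 0.679, 0.288, 2.23, 0.423 and 0.326 CPM in P2-CTCF-KO. No CD41 library reached the lowest of the 11 others. From Flk1 to CD41 Rara fell, with log2 fold changes of -3.08 in wild type (SE 0.54, adjusted p = 0.000274), -3.07 in P1-CTCF-KO (SE 0.65, adjusted p = 0.00113) and -2.08 in P2-CTCF-KO (SE 0.47, adjusted p = 0.00189), whereas Undiff and wild-type Flk1 did not differ beyond the error (0.33, SE 0.51, adjusted p = 0.676). The highest CD41 value belonged to the first P2-CTCF-KO D2.1 library, which also held the highest endothelial sum of the 12 (67.2 CPM) and the lowest hematopoietic sum (75.7 CPM).

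Rarg (ENSMUSG00000001288.8, chr15:102065368-102087953, minus strand) had 742 and 518 counts in Undiff, that is 4.05 and 5.08 CPM. It stood at 0.696, 1.22 and 1.20 CPM in wild-type Flk1, 0.939, 1.40 and 1.97 CPM in P1-CTCF-KO Flk1 and 1.17, 0.938 and 1.41 CPM in P2-CTCF-KO Flk1. In CD41 it was at 0.687, 0.128, 0.0986 and 0.250 CPM in wild type, 0.608, 0.559 and 1.01 CPM in P1-CTCF-KO and 0.291, 0, 0.419, 0.106 and 0 CPM in P2-CTCF-KO. Undiff lay above every other library. Rarg fell, with log2 fold changes of -2.16 from Undiff to wild-type Flk1 (SE 0.50, adjusted p = 0.00344), -1.71 from wild-type Flk1 to CD41 (SE 0.58, adjusted p = 0.0323) and -2.66 between P2-CTCF-KO Flk1 and CD41 (SE 0.58, adjusted p = 0.00143). The wild-type step was the least secure, since with the clone as a block its adjusted p was 0.0887 and leaving out any of 5 libraries (Flk1 C6.1 or C8.1, the second CD41 B9.3 library, CD41 C6.1 or CD41 C8.1) took it above the threshold, to between 0.0754 and 0.109. In P1-CTCF-KO the step was -0.96 (SE 0.57, adjusted p = 0.21) with libraries that overlapped.

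Rarb (ENSMUSG00000017491.7, chr14:17263353-17914845, minus strand), itself a known target of retinoic acid, was scarce for its counted span of 651.5 kb. It had 23, 3 and 6 counts in wild-type Flk1 (1.33, 0.364 and 0.360 CPM), 5, 7 and 6 in P1-CTCF-KO Flk1 (0.294, 0.288 and 0.393 CPM) and 2, 1 and 1 in P2-CTCF-KO Flk1 (0.138, 0.0938 and 0.0740 CPM). Undiff, sequenced more deeply outside ribosomal RNA, held 22 and 8 counts (0.120 and 0.0785 CPM), and no CD41 library held more than 3. Wild-type Flk1 was higher than Undiff by 2.77 on the log2 scale (SE 0.66, adjusted p = 0.0042) and higher than wild-type CD41, with 32 counts against 3, a ratio of 10.53 in pooled CPM (95% exact counting interval 3.29 to 53.8, adjusted p = 0.00428 from edgeR). Without Flk1 B9.3 that ratio was 5.01. The first of these calls was lost without the second Undiff library (adjusted p = 0.0861). It was made with TMM factors of 7.56 and 4.97 in Undiff, against 0.946, 0.381 and 0.827 in wild-type Flk1. Outside ribosomal and multi-locus entries Undiff held 7748566 and 4858658 counts and wild-type Flk1 1984166 (B9.3), 1955010 and 2134615. Relative to these counts, B9.3 was the only wild-type Flk1 library with more Rarb than both Undiff libraries. Rarb had a value in only 6 of the 9 alternatives to this comparison, from 2.68 to 2.85. This range does not cover library sizes from single-locus entries with no factor, where Rarb did not pass the filter. The B9.3 library alone accounted for 23 of the 32 wild-type Flk1 counts and was the one rich in endothelial markers, and without the 3 B9.3 libraries Rarb did not pass the filter.

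Cyp26a1 (ENSMUSG00000024987.5, chr19:37772297-37776026, plus strand), which breaks down retinoic acid, was found mainly in mesoderm. Its span lies inside those of 3 multi-locus small RNA entries of the table on the opposite strand, and how reads shared by entries were assigned is not given in the sources used here. Undiff held 2 and 3 counts. Wild-type Flk1 held 4, 14 and 13 counts (0.232, 1.70 and 0.780 CPM), P1-CTCF-KO Flk1 13, 27 and 11 counts (0.763, 1.11 and 0.721 CPM) and P2-CTCF-KO Flk1 59, 35 and 31 counts (4.06, 3.28 and 2.3 CPM). In CD41 libraries no more than 4 counts were seen. All P2-CTCF-KO mesoderm libraries were above all others.

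Cyp26a1 was higher in wild-type Flk1 than in Undiff (adjusted p = 0.000177 from edgeR), with a ratio of pooled CPM of 42.0 and a 95% counting interval of 16.2 to 138 that covers counting error only. This ratio was 25 without the first and 67.4 without the second Undiff library. The fitted log2 value was 5.13, and 3.43 with library sizes from single-locus entries and no factor. In wild-type CD41 it was lower than in Flk1 (adjusted p = 0.00554 from edgeR, with libraries that overlapped), with 3 counts against 31 and a ratio of 10.2 (counting interval 3.18 to 52.2). All 3 of those counts came from the C8.1 library. In P2-CTCF-KO CD41 it was lower than in Flk1 by a ratio of 28.9 (counting interval 12.9 to 80.3, adjusted p = 1.6e-05 from edgeR). In P1-CTCF-KO the step was -1.67 (SE 0.79, adjusted p = 0.113). Its nearest relatives Cyp26b1 and Cyp26c1 did not pass the filter, with means of at most 0.148 and 0.673 CPM in any group. Cyp26c1 was at 0.412 ± 0.333 CPM in wild-type CD41 (SD, n = 4) and at 0.0992 ± 0.0340 CPM in wild-type Flk1 (SD, n = 3).

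Counted over the 9 genes, 3 were called between Undiff and wild-type Flk1 (2 higher, Rarb and Cyp26a1, and 1 lower, Rarg), where 22.8% of all genes tested were called, 10.4% higher and 12.4% lower. Between wild-type Flk1 and CD41 all 5 tested genes were called, 1 higher and 4 lower, against 23.1% of all genes, 10.7% higher and 12.4% lower. With the clone as a block 3 were called, as Rarg lost its call and Rarb did not pass the filter of the 21 libraries concerned. Between Undiff and wild-type CD41 3 were called, 1 higher and 2 lower, namely Dhrs3 higher and Rara (-2.76, SE 0.56, adjusted p = 0.000448) and Rarg (-3.87, SE 0.54, adjusted p = 1e-05) lower, against 41.3% of all genes, 17% higher and 24.2% lower. In P1-CTCF-KO the step from Flk1 to CD41 called 2 (Dhrs3 higher, Rara lower), against 26.8% of all genes, 13% higher and 13.8% lower, and in P2-CTCF-KO 4 (Dhrs3 higher, Rara, Rarg and Cyp26a1 lower), against 25% of all genes, 13.2% higher and 11.8% lower. The libraries of the groups did not overlap for 3 of the 5 tested genes between Undiff and wild-type Flk1 (59.5% of all genes tested), 4 between wild-type Flk1 and CD41 (33.6%), 3 between Undiff and wild-type CD41 (62%), 3 at the P1-CTCF-KO step (48%) and 4 at the P2-CTCF-KO step (30.2%). The median log2 fold change of the 5 tested genes between wild-type Flk1 and CD41 was -3.08, beside -0.0161 over all genes tested. Rarb and Cyp26a1 held 3 counts or fewer in every wild-type CD41 library. With these genes set to the smallest change that 3 counts per library allows, the median was -1.61. Between Undiff and wild-type Flk1 the fitted median was 0.89 beside -0.16. This comparison depended on the scaling for all genes, as 45.5% of the calls were higher in Flk1 here, 59.3% with DESeq2, 52.9% without multi-locus entries and 4.17% with library sizes from single-locus entries and no factor, an alternative chosen after the data had been seen that moved the median of all genes by -1.65. Rara (-1.32) and Dhrs3 (-0.67) changed sign under it, neither being called under TMM. Rarb had a value in only 6 of the 9 alternatives to this comparison, and none with those library sizes. With 5 genes, of which those passing the filter had to be high somewhere, these medians describe the genes and no more.

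**Figure D2:**
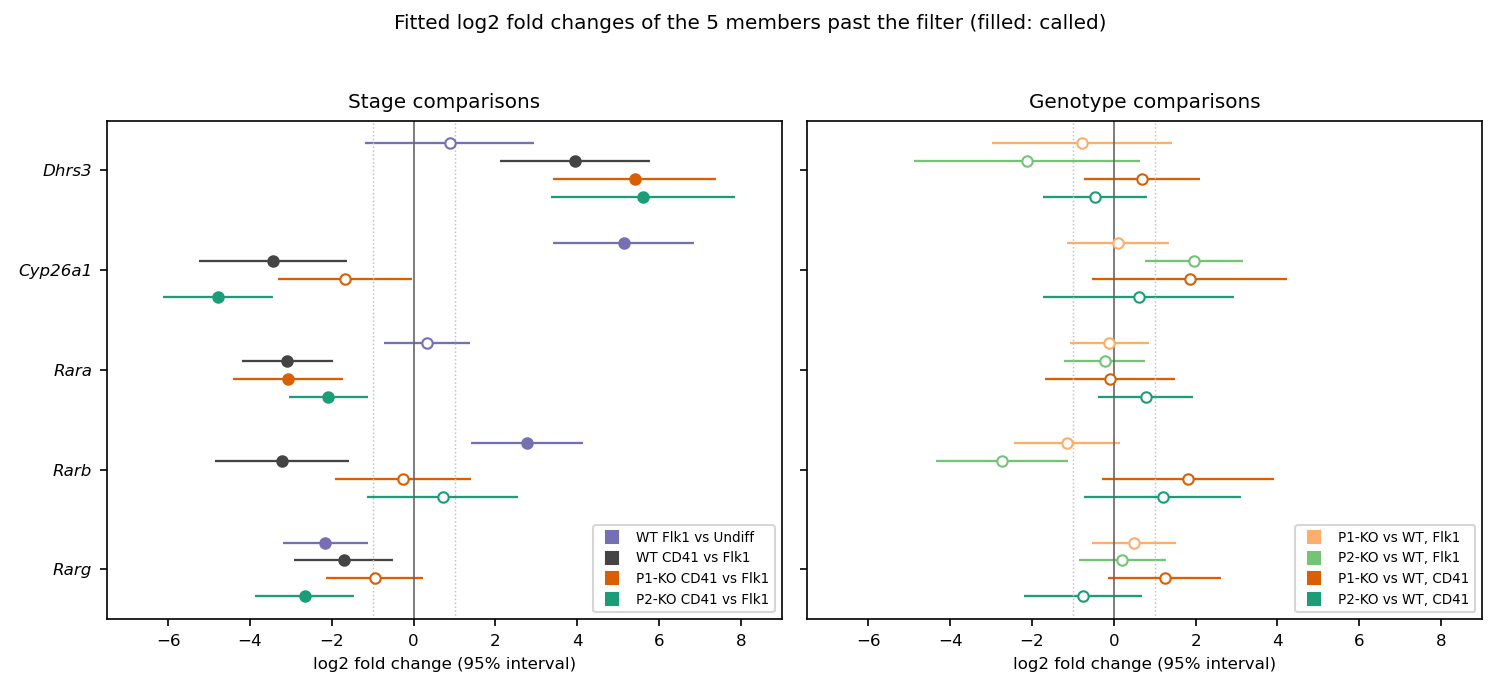
Fitted log2 fold changes with 95% intervals of the 5 genes past the filter, for 4 stage comparisons (left) and 4 genotype comparisons (right), with filled points for called changes and dotted lines at an absolute value of 1. Dhrs3 lies to the right of 0 and Rara to the left in all 3 steps from Flk1 to CD41, and no genotype comparison is filled. Where a group sits at 3 counts or fewer in every library, the fitted value is no bound.

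Whether the deletion of a Runx1 CTCF site went with a different level of these genes was asked at each stage. None of the 5 genes past the filter was called in any of the 6 comparisons, and the other 4 were not tested. DESeq2, run without this filter, called none of the 9. It gave those 4 genes no adjusted p between P2-CTCF-KO and wild-type Flk1. In Flk1 edgeR called 0% of all genes tested between P1-CTCF-KO and wild type (1.47% at an unadjusted p under 0.05), 0.144% between P2-CTCF-KO and wild type (10.2%) and 0.0399% between the knockouts (7.37%). In CD41 it called 0% in each, with 4.69%, 4.35% and 10.9% at an unadjusted p under 0.05. At that limit edgeR passed Cyp26a1 and Rarb between P2-CTCF-KO and wild-type Flk1, Cyp26a1 between the knockouts in Flk1 and Rarg between the knockouts in CD41. Cyp26a1 averaged 3.21 ± 0.886 CPM (SD, n = 3) in P2-CTCF-KO mesoderm, against 0.904 ± 0.742 CPM in wild type (n = 3) and 0.865 ± 0.214 CPM in P1-CTCF-KO (n = 3). The log2 fold change was 1.96 against wild type (95% interval 0.76 to 3.16) with an unadjusted p of 0.00277 and an adjusted p of 0.181 from edgeR, and 1.87 against P1-CTCF-KO (0.72 to 3.01) with an adjusted p of 0.296. The 3 libraries were above all 3 of wild type and all 3 of P1-CTCF-KO, and these 2 comparisons share the P2-CTCF-KO libraries. Of all genes tested 8.14% were separated in this direction from wild type and 7.33% from P1-CTCF-KO. Over the alternatives the difference from wild type ranged from 1.45 to 2.02 with adjusted p from 0.102 to 0.807, and it stayed between 1.44 and 2.66 with each library left out.

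Rarb went the other way in the same libraries, with 0.102 ± 0.0326 CPM (SD, n = 3) in P2-CTCF-KO, 0.686 ± 0.561 CPM in wild-type (n = 3) and 0.325 ± 0.0592 CPM in P1-CTCF-KO mesoderm (n = 3). Wild type stood above P2-CTCF-KO by a ratio of 7.35 in pooled CPM (95% counting interval 2.61 to 28.6, unadjusted p = 0.00204 and adjusted p = 0.17 from edgeR), which was 3.5 without wild-type B9.3. P1-CTCF-KO stood above P2-CTCF-KO by a ratio of 3.08 (1.01 to 12.5, adjusted p = 0.734). The libraries did not overlap in either comparison, as for 8.74% and 8.67% of all genes in this direction. At 1 or 2 counts per P2-CTCF-KO library the size of the difference is poorly measured. Dhrs3 in P2-CTCF-KO against wild-type mesoderm had a fitted log2 fold change of -2.12 (SE 1.33, adjusted p = 0.615), with libraries that overlapped and values from -3.21 to 0.953 with each library left out. The last was without wild-type B9.3, which left 0 and 2 counts in wild type.

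The mesoderm groups also differed in their marker sums. The 6 early mesoderm markers T, Eomes, Mesp1, Mixl1, Kdr and Pdgfra summed to 71.3, 107 and 76.8 CPM in P2-CTCF-KO Flk1, against 26.2 to 48.7 CPM in wild type and 45.3 to 49.95 CPM in P1-CTCF-KO. Of the Flk1 libraries, those of P2-CTCF-KO thus held the highest values of this sum as well as of Cyp26a1. Within no genotype did Cyp26a1 rank the libraries in the order of this sum. In P2-CTCF-KO D10.1 held the highest Cyp26a1 (4.06 CPM) with the lowest sum (71.3 CPM). With so few libraries per genotype such an order cannot show whether Cyp26a1 and the sum go together. All 6 markers were detected in every P2-CTCF-KO library. Eomes was at 11.98 to 25.8 CPM there and at 0.812 to 5.71 CPM in wild type, while Kdr overlapped (24.2 to 29.8 and 16.9 to 37.8 CPM). The endothelial sum was 1.5 to 3.03 CPM in P2-CTCF-KO and 5.95 to 83.6 CPM in wild type, the pluripotency sum 4.66 to 8.95 and 1.44 to 2.19 CPM, the endoderm sum 17.7 to 25.6 and 12.8 to 13.6 CPM, and the paraxial mesoderm sum 0.375 to 0.62 and 0.116 to 0.30 CPM. Within wild type the library with the lowest Cyp26a1 and the highest Rarb and Dhrs3 was B9.3, the one with the highest endothelial sum. The part of these cell populations in the differences of Cyp26a1 and Rarb was not tested.

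**Figure D3:**
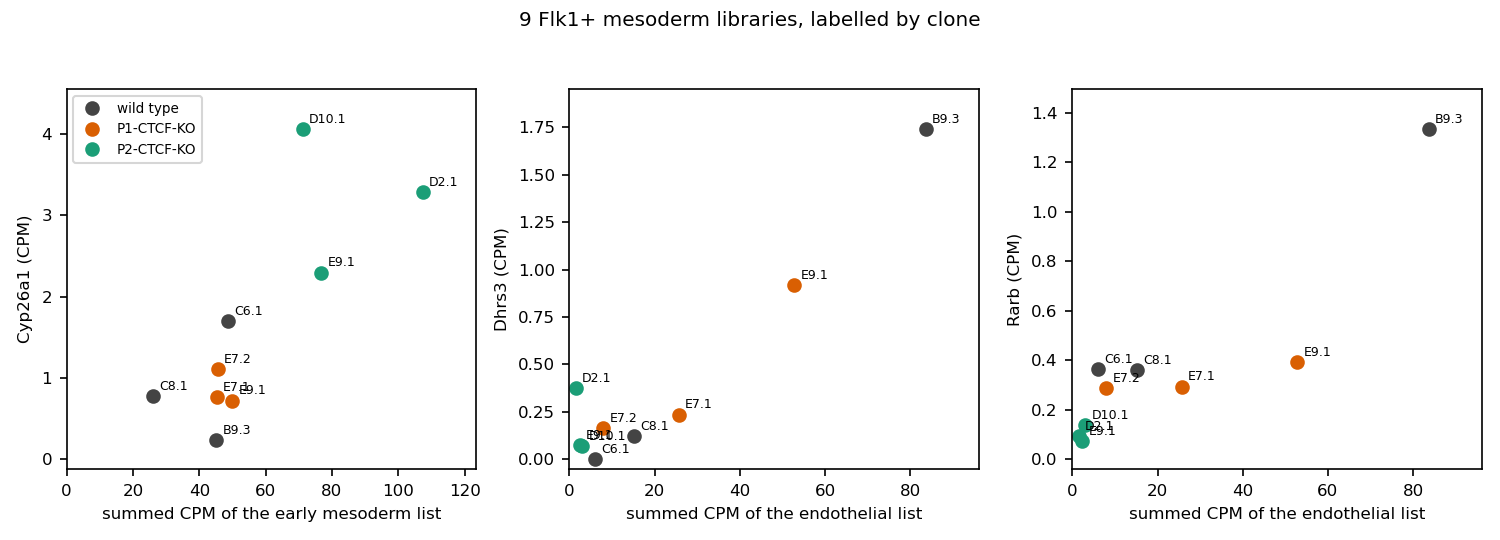
The 9 Flk1+ mesoderm libraries by clone, with Cyp26a1 against the summed level of the early mesoderm markers and Dhrs3 and Rarb against that of the endothelial markers, all in CPM on linear axes. P2-CTCF-KO libraries hold the 3 highest values of Cyp26a1 and of the early mesoderm sum, and B9.3 the highest values of Dhrs3, Rarb and the endothelial sum.

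In HPCs none of the 5 tested genes was separated between a knockout and wild type. Of all genes tested, 5.68% were separated for P1-CTCF-KO and 0.694% for P2-CTCF-KO, in either direction. With shares this low, the lack of separation does not set these genes apart from others. P2-CTCF-KO Rarg lay below P1-CTCF-KO Rarg in all libraries (0 to 0.419 against 0.559 to 1.01 CPM), with a log2 fold change of -1.98 (SE 0.68, adjusted p = 0.443) where 1.55% of all genes were separated in this direction. Dhrs3 differed from wild type by 0.69 in P1-CTCF-KO (95% interval -0.74 to 2.12) and by -0.46 in P2-CTCF-KO (-1.72 to 0.81). For Rara the intervals were -1.68 to 1.48 and -0.39 to 1.95. Changes of more than 4-fold either way were thus outside the interval for Rara in both genotypes, and smaller ones could have been missed. The difference between the step of a knockout and that of wild type was called in none of the 5 genes (0% of all genes called for P1-CTCF-KO and 0.0159% for P2-CTCF-KO, or 3.55% and 6.8% at an unadjusted p under 0.05). The largest difference was that of Rarb in P2-CTCF-KO (3.93, SE 1.22, adjusted p = 0.365), a fitted value for a gene at the floor in both P2-CTCF-KO stages.

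Compared with each other per kb of counted span, receptors and enzymes changed places between stages. In Undiff Rarg led with 0.202 CPM per kb, ahead of Rara with 0.0901 and Dhrs3 with 0.0107 CPM per kb. In wild-type Flk1 Cyp26a1, the shortest of the 5 at 3.73 kb, had the highest mean with 0.242 ± 0.199 CPM per kb (SD, n = 3), beside Rara with 0.112 and Rarg with 0.0459 CPM per kb, though in B9.3 it lay below Rara (0.0622 against 0.137 CPM per kb), and in P2-CTCF-KO Flk1 it reached 0.862 CPM per kb. In wild-type CD41 Dhrs3 led with 0.308 CPM per kb, and the next, Crabp2 at 0.0189 and Cyp26a1 at 0.0168 CPM per kb, rested on 3 counts each. Rarb stayed at or below 0.00105 CPM per kb in every group. Introns were counted too, so long genes with few exons are comparable on this scale only as transcribed spans.

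The other genes of the pathway were described from lists of 56 genes, 54 of them in the table, and 19 of those past the filter are described. Retinol and retinal oxidation and reduction outside the 9 genes held 21 genes, of which 5 were tested. Rdh10, the main retinol dehydrogenase of the embryo, was at 1.1 ± 0.215 CPM in Undiff (SD, n = 2), 0.967 ± 0.485 CPM in wild-type Flk1 (n = 3) and 0.807 ± 0.382 CPM in wild-type CD41 (n = 4) and was called in no comparison. Aldh1a1 and Aldh1a3, relatives of Aldh1a2, had means of at most 0.0357 and 0.0562 CPM. Adh5, an alcohol dehydrogenase, fell by 1.25 between Undiff and wild-type Flk1 (adjusted p = 0.015), and Rdh11 fell by 1.151 from Flk1 to CD41 in P2-CTCF-KO (adjusted p = 0.00247).

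Partners and cofactors of the receptors were the best measured list, with 10 of 11 genes tested. From wild-type Flk1 to CD41 3 of the genes described here rose. Ncor1, a corepressor of unliganded receptors, was at 16.9 ± 1.82 CPM in Flk1 (SD, n = 3) and 53.1 ± 10.8 CPM in CD41 (n = 4), a rise of 1.66 on the log2 scale (SE 0.22, adjusted p = 1.5e-05). The coactivator Ncoa3 rose from 8.81 ± 0.411 to 31.6 ± 6.26 CPM (1.84, adjusted p = 0.000199). Nrip1, a ligand-dependent corepressor, rose by 1.11 (adjusted p = 0.00407). These 3 genes were also called higher in both knockouts, with Ncor1 higher by 1.83 and 1.5 in P1-CTCF-KO and P2-CTCF-KO. The partner Rxra was not called at any step, at 2.06 ± 0.382 CPM in wild-type Flk1 and 1.35 ± 0.397 CPM in wild-type CD41, and Rxrb was called in P1-CTCF-KO (-1.32, adjusted p = 0.0276), whose step was not called different from that of wild type.

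Of the 12 genes known to respond to retinoic acid 4 passed the filter. Between Undiff and wild-type Flk1 Hoxd4 (adjusted p = 0.000206) and Nr2f2 (adjusted p = 0.00203) were called higher, and Meis2 higher by 2.78 (adjusted p = 0.0488). Hoxd4 held 0 and 1 counts in Undiff and 19, 0 and 14 in wild-type Flk1, and Nr2f2 none in Undiff and 67 (B9.3), 0 and 4 in wild-type Flk1, so that neither was detected in C6.1. From wild-type Flk1 to CD41 Hoxd4 was lower, with 33 counts against 2 (adjusted p = 0.00783), and Meis2 fell by 2.56 (adjusted p = 0.0362). They varied among lines, with Nr2f2 at 1.38 ± 2.18 CPM and Meis2 at 5.10 ± 3.76 CPM in wild-type Flk1 (SD, n = 3). In P2-CTCF-KO Flk1 Hoxd4 and Nr2f2 had 1 count each over the 3 libraries, against 33 and 71 counts in wild type, and neither difference was called. Tgm2 was at least 6.41-fold higher in CD41 than Flk1 in P2-CTCF-KO (adjusted p = 0.00403). Of the 19 genes 6 were called between Undiff and wild-type Flk1 (5 higher, 1 lower) and 5 between wild-type Flk1 and CD41 (3 higher, 2 lower), beside the 22.8% and 23.1% of all genes, and none between genotypes.

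**Figure D4:**
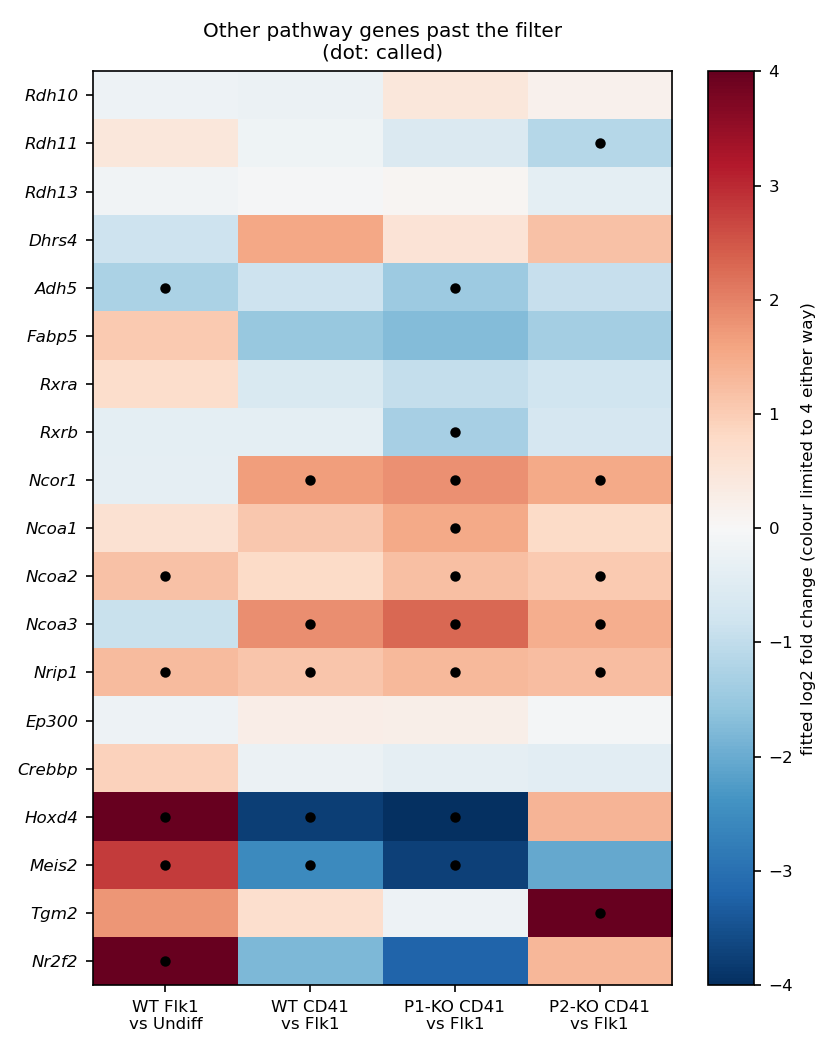
Fitted log2 fold changes of 19 other pathway genes past the filter in 4 stage comparisons, as colour limited to 4 either way, with a dot for each call. Ncor1, Ncoa3 and Nrip1 are red with a dot in all 3 steps from Flk1 to CD41, whereas Hoxd4, Meis2 and Nr2f2 carry the darkest fields of wild-type mesoderm against Undiff.

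Open chromatin at the 9 genes was read from ATAC-seq peaks of cells without a CTCF site deletion. The labels give the line as E14-TG2a, while the methods name a derivative, E14-TG2a-RV, that carries a Venus reporter at Runx1 and a Runx1 enhancer reporter transgene. The peaks were called by the authors on merged libraries and hence without replicates, in Flk1 (76766 peaks) and CD41 cells (29037 peaks). In Flk1 7 of the 9 genes held a peak in their span and 3 within 1 kb of their start in the count table, where 63.5% and 55.2% of all genes did. In CD41 2 held one in the span, Dhrs3 and Rarb, and 2 near that start, Rara and Rarb, beside 39.2% and 37.1% of all genes. For Rarb the start of the count table is not the RefSeq start used for its promoter. Of the 40 Flk1 peaks in the spans 10 were shared with CD41, as were 25.8% of all Flk1 peaks. Of the 15 CD41 peaks 9 were shared with Flk1, as were 69.4% of all CD41 peaks.

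Dhrs3 held 5 intronic peaks in Flk1 and 4 in CD41, of which 3 were shared, among them the one with the direct repeat. A Flk1 peak lay just before its start (chr4:144482578-144482678) without a CD41 peak there, while the transcript level was high in CD41 and low in Flk1. Rara held 7 Flk1 peaks from its start to its last introns. In CD41 only the peak just before its start was called (chr11:98798832-98798931), which overlapped a Flk1 peak at the same place. Rarg held 3 Flk1 peaks and none in CD41, and no peak of either stage covered its RefSeq starts. Aldh1a2 held 2 intronic Flk1 peaks (chr9:71078042-71078147 and chr9:71108249-71108315) and another before its start, Crabp2 2 and Stra6 1, without any in CD41. Crabp1 and Cyp26a1 held none in either stage, and the Flk1 peak nearest to Cyp26a1 was 18302 bp from its RefSeq start. Rarb, the longest, held 20 Flk1 and 11 CD41 peaks with 6 shared. Its start in the count table had a CD41 peak within 1 kb (chr14:17914530-17914663) and no Flk1 peak. Its RefSeq start, used for the promoter above, lies inside the counted span, and a peak of each stage lay just before its RefSeq start (chr14:17408046-17408328 in Flk1 and chr14:17408038-17408170 in CD41). The CD41 list was the smaller in all, and the depth behind the lists was not analysed here.

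CTCF peaks of 416B cells, a mouse hematopoietic progenitor line, were found in the spans of 4 genes, Dhrs3 (2), Rara (3), Rarb (3) and Rarg (1), where 41.5% of all genes held one. None lay within 1 kb of a start (12.8% of all genes). Within 5 kb of the start 3 genes had one, and the one before Dhrs3 (chr4:144480517-144480859) overlapped an ATAC-seq peak of both stages. These peaks were not measured in Flk1 or CD41 cells and do not concern the deleted sites, which lie at Runx1.

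**Figure D5:**
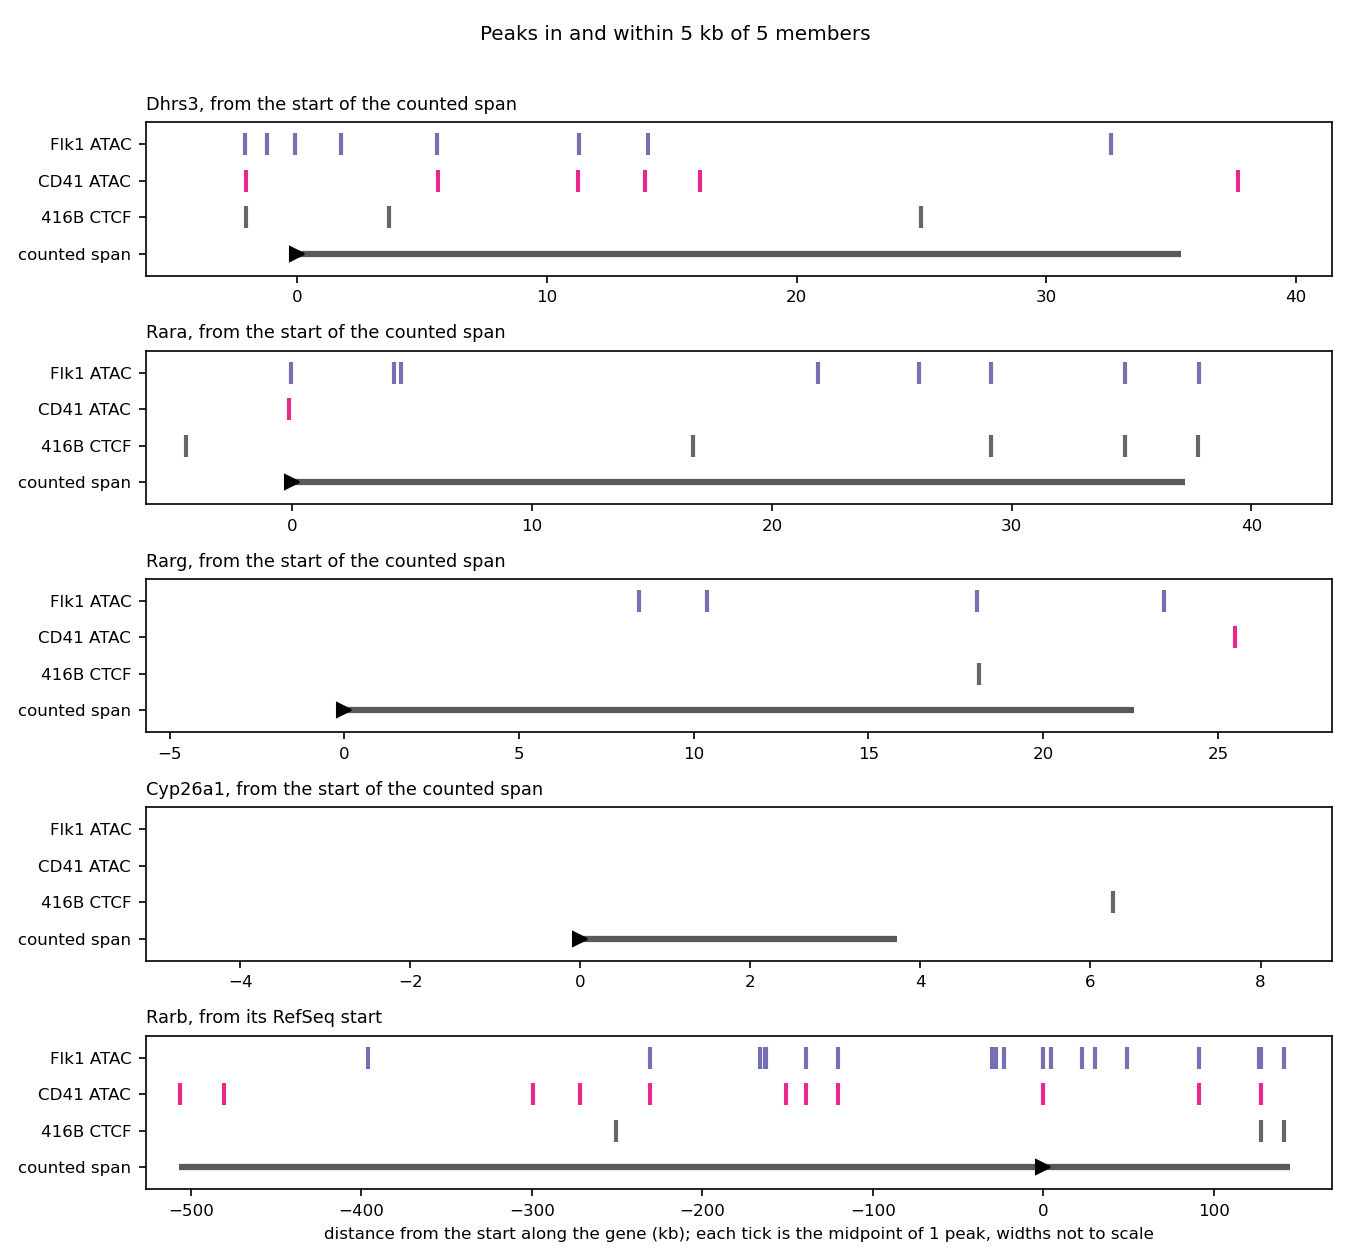
Midpoints of ATAC-seq peaks of Flk1 and CD41 cells and of CTCF peaks of 416B cells in and within 5 kb of 5 genes, by distance from the start in kb along the gene, with the counted span as a bar and the start as an arrowhead. Dhrs3 and Rarb carry peaks of both stages, Rara a single CD41 peak at its start, Rarg none in its span in CD41 and Cyp26a1 no ATAC-seq peak.

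Over the 23 libraries, the genes whose log2 CPM followed those of a member most closely were listed among 10252 genes with at least 200 counts. For Dhrs3 they were Vwf, a protein of endothelial cells and megakaryocytes (Pearson r = 0.98), Syne1 (0.98) and Inpp5d, a phosphatase of blood cells (0.979). Vwf was at 38.2 ± 21.7 CPM in wild-type CD41 (SD, n = 4) and 0.736 ± 1.17 CPM in wild-type Flk1 (n = 3). For Rara they were Lrp4 (0.964), Ptk7 (0.963) and Camsap2 (0.962), for Rarg Spin1 (0.898), Cdk6 (0.888) and Elavl2 (0.884), and for Cyp26a1 Prex1 (0.919), Evx1 (0.902) and Mixl1 (0.894). Evx1 and Mixl1 are transcription factors of the primitive streak, and Mixl1 was at 19.4 ± 11.8 CPM in P2-CTCF-KO Flk1 (SD, n = 3) and 2.27 ± 2.06 CPM in wild-type Flk1 (n = 3). The libraries share stage and clone, so these correlations describe the stage pattern. Several of the names changed with a prior count of 0.5 or over the 21 differentiated libraries. Vwf, Evx1 and Mixl1 were not among the closest 3 in either setting, whereas Inpp5d, Lrp4, Cdk6 and Prex1 stayed in both.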

How the data were processed

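Poly(A)-minus RNA-seq of 23 libraries, ATAC-seq of Flk1 and CD41 cells with intact CTCF sites and CTCF ChIP-seq of 416B cells were used. Per the study's methods the authors used STAR to map RNA-seq reads to mm9, took out PCR duplicates, counted reads over exons and introns together with featureCounts and deposited whole-number counts per gene. Strand setting and annotation release are not given in the sources used here. The authors deposited peak lists (chromosome, start and end, without scores or signal) called with MACS2, the ATAC-seq ones on merged reads. Undiff was labelled as technical replicates.

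From the deposited counts, edgeR 4.0.16 (R 4.3.3, TMM, filterByExpr with a minimum count of 10, quasi-likelihood test, Benjamini-Hochberg adjustment over the 12543 genes tested) was fitted once to 7 groups of the 23 libraries, for 13 comparisons. The scripts were tested on simulated data. The floor was 3 counts per library. For genes with few counts in a group, ratios of pooled CPM with exact 95% binomial intervals were added after the data had been seen, and intervals cover counting error or the fit alone. The count table held 187 multi-locus or ribosomal RNA entries. DESeq2 1.42.0, other scalings, no filter, separate fits, summed libraries of a clone, the clone as a block and leaving out each library were alternatives. Flk1 and CD41 libraries of a clone share a cell line and are paired by it, with correlations of -0.073 to 0.12 between their deviations from the group means over 12543 genes. Replicates within a group differed by more than sampling noise (chi-square of 2.24 to 32.2 per gene over 29 pairs). The 9 genes and all lists were chosen with earlier results of these data known. Named were the 9 genes, other pathway genes from 5 lists where they passed a test or as examples, and the 3 genes most alike in log2 CPM (prior count 2) to each of the 9 with at least 200 counts. Of 56 listed genes 54 were in the table. Some listed genes past the filter are not reported here. Peaks were set against gene spans and starts with at least 1 bp of overlap, and exons and introns were read from GENCODE on mm9.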

Additional observations from a re-analysis of the deposited data

Results flagged for a closer look

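The gap between an extreme library and its neighbour was set against the whole range for each gene in groups of 4 or 5 libraries. Of 13 such sets of a gene and a group, 3 exceeded the 95% limit. All came from wild-type or P2-CTCF-KO CD41, so the sets share libraries. That limit holds for normally distributed values, which low counts with zeros are not, so how many sets would exceed it by chance is not known. Dhrs3 in the first P2-CTCF-KO D10.1 library of CD41+ HPCs was 24.3 CPM, against 2.75 to 4.71 CPM in the other 4, and the second library of the same clone was at 4.71 CPM. That first library also had the highest hematopoietic marker sum of the group, 261 CPM against 118 CPM in the second. Rara in the first P2-CTCF-KO D2.1 library of CD41+ HPCs was 2.23 CPM, with 32 counts, against 0.423 CPM and 4 counts in the second library of the clone, and its early mesoderm sum was 19.9 CPM against 4.01 CPM. Cyp26a1 in the wild-type C8.1 library of CD41+ HPCs was 0.250 CPM, which is 3 counts, with 0 in the other 3 libraries. With all others at 0 its gap equals the whole range whatever its size. The part of the cell populations in these values was not tested.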

How the results depend on the processing

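Without the second Undiff library the members called between Undiff and wild-type Flk1 went from 3 to 1, as Rarb (2.55, adjusted p = 0.0861) and Rarg (-1.94, adjusted p = 0.0558) lost their calls in edgeR. Over the fits that each left out a single library, the number was 1 to 3 in this comparison, 4 to 5 between wild-type Flk1 and CD41, and 0 to 1 between P2-CTCF-KO and P1-CTCF-KO CD41, where Dhrs3 passed without the first D10.1 library (-2.18, adjusted p = 0.0304). With the clone as a replicate block, 3 in place of 5 were called between wild-type Flk1 and CD41, 2 in P1-CTCF-KO and 4 in P2-CTCF-KO, and no other call changed. Library sizes from single-locus entries with no factor, chosen after the data had been seen, also gave 3 (Rarg -1.25, adjusted p = 0.145), with a shift of 0.391 in the median of all genes. Rarg lost its wild-type call in 5 of the left-out libraries, with adjusted p from 0.0754 to 0.109. Dhrs3 between Undiff and wild-type Flk1 was -2.18 without wild-type Flk1 B9.3, a fitted value with 0 and 2 counts left in Flk1. Of the log2 fold changes of the members, 1450 with a library left out and 531 under other settings kept their direction and call or moved by less than 1 SE, while 24 and 11 moved by more, 7 and 2 lost and 1 and 0 gained a call.

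Over all genes, DESeq2 called 111 genes against 18 between P2-CTCF-KO and wild-type Flk1, 57 against 5 between P2-CTCF-KO and P1-CTCF-KO Flk1, and 39 against 2 for the step of P2-CTCF-KO. With peaks above the median width alone, genes with a peak went from 3 to 1 (Flk1, start), 7 to 4 (Flk1, span) and 2 to 1 (CD41, start), and within 5 kb of the start from 0 to 3 for CTCF. Low counts limit Rarb, Cyp26a1 outside mesoderm and the 4 genes under the filter.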
